A study of Mus musculus with 32 samples.

Results

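Dppa2 and Dppa4 are 2 adjacent genes on mouse chromosome 16 whose expression was followed through a culture model of germ cell specification. Both were found through GEO's platform annotation of the array, as the probe sets that carry exactly one gene symbol equal to Dppa2 or Dppa4. That search returned 3 probe sets of 45101 on the array, namely 1429654_at and 1453223_s_at for Dppa2 and 1429597_at for Dppa4. The pair was chosen by someone who had values of these same arrays in view, so the levels and differences of Dppa2 and Dppa4 are given as a description with their errors and without p-values.

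The study asked whether the transcription factors Blimp1 (gene Prdm1), Prdm14 and Tfap2c, switched on by doxycycline and without cytokines, turn epiblast-like cells (EpiLCs) into primordial germ cell-like cells (PGCLCs). It used 32 Affymetrix mouse arrays in 16 groups of 2, with cDNA amplified before hybridisation. The 22 new arrays came from male cells of a mixed C57BL/6 and 129 background derived from one parental embryonic stem cell (ESC) clone, BVSCR26rtTA, which carries the reporters Blimp1-mVenus and stella-ECFP and the doxycycline-dependent activator rtTA at Rosa26. The 10 earlier arrays came from another series and a C57BL/6 background.

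Among the new groups, BP14A cells carry tetO-driven piggyBac transgenes for all 3 factors, BP14 cells for Blimp1 and Prdm14, P14A cells for Prdm14 and Tfap2c, and P14 cells for Prdm14 alone. These lines were turned into EpiLCs for 36 h, aggregated at 2000 cells per well, given doxycycline at 1.5 μg/ml and taken on day 2, and for BP14A also on day 4. Parental EpiLCs were taken at 36 h, and parental PGCLCs induced with BMP4, BMP8A, SCF, LIF and EGF (Ck-PGCLCs) on days 2 and 4. The parental clone with doxycycline for 2 days carries the activator but no factor transgene; its labels do not say from which state the cells were taken. BP14A ESCs were kept in 2 inhibitors and LIF (2i+LIF), or given doxycycline for 2 days and selected for the stella-ECFP reporter. The earlier groups were 2i+LIF ESCs, EpiLCs at 48 h and Ck-PGCLCs at day 6, all male with Blimp1-mVenus and stella-ECFP, the embryonic day (E) 5.5 epiblast, and E9.5 primordial germ cells (PGCs) with stella-EGFP, both of unknown sex. No label names a sort for the PGCLCs or how many clones stand behind a factor line, and none names separate cultures, so the errors measure the spread between arrays, part of which may be technical.

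Dppa2 and Dppa4 code for small nuclear proteins that share a SAP domain, a DNA-binding fold, and that bind each other on chromatin. Both are typical of pluripotent cells and early germ cells and are silent in most adult tissues. In mouse ESCs they sit at CpG-rich promoters, where they help to keep developmental and germline genes marked by H3K4 methylation and free of DNA methylation, and they act upstream of genes of zygotic genome activation such as the Dux cluster.

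All levels are quantile-normalised log2 levels, where each unit stands for a factor of 2 on the linear scale. The 2 arrays of a group correlated at 0.966 to 0.986 over the 15497 tested genes, and arrays of different groups at 0.879 to 0.988. A difference between groups has a standard error (SE) of 0.28 for Dppa2 probe set 1453223_s_at, 0.25 for Dppa2 probe set 1429654_at and 0.21 for Dppa4 from the model fitted on all arrays. Whether the arrays of 2 groups overlap is given for Dppa2 and Dppa4 as a description only. With 2 arrays per group, separation can easily arise without a difference, and its share over all probe sets is not given. The other genes were tested with limma. They are said to rise or fall only at a Benjamini-Hochberg adjusted p under 0.05 over 15497 genes and a change of at least 2-fold. A gene is called dim in a group where both arrays are under 4.05, and the size of a difference from a dim level is uncertain. As a check of the labels, all 6 naive ESC markers fell and all 4 primed epiblast markers rose from BP14A ESCs to 36 h EpiLCs, and likewise from the earlier ESCs to 48 h EpiLCs. All 7 tested germ cell markers rose from 36 h EpiLCs to BP14A day 2, from 48 h EpiLCs to day 6 Ck-PGCLCs and from epiblast to PGCs. Of these markers, Prdm1, Prdm14 and Tfap2c are the transgenes of BP14A cells, so their rise there may be transgene RNA. In each of these comparisons, the shares of all tested genes that rose and that fell both lay between 5.36% and 9.38%. The Gapdh 5′ minus 3′ signal may reflect the cDNA amplification as well as RNA integrity. It was below -2 on both arrays of BP14A day 4 and of BP14A ESCs with doxycycline and on 1 array each of BP14 day 2, 36 h EpiLCs and BP14A ESCs. In the parental cells with doxycycline the signal was -0.33 and -0.35. Its part in the levels was not tested.

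Dppa2 and Dppa4 were lowest in the parental cells with doxycycline and next lowest in the day 2 Ck-PGCLCs, below every array of the other 14 groups. For Dppa2 there was no sharp gap above these 2 groups, since PGCs lay 0.61 above day 2 Ck-PGCLCs and 1.02 below the next group, BP14A ESCs. For Dppa2, probe set 1453223_s_at ranged from 4.25 on the lowest array to 11.74 on the highest, and no array of the other 14 groups was below 8.46. For Dppa4 the range was 7.66 to 12.60, and no array of the other 14 groups was below 10.76. Group means of Dppa2 spanned 6.77 log2 units on that probe set and 5.17 on probe set 1429654_at, and those of Dppa4 spanned 4.57. Without the 2 lowest groups the spans were 3.12, 2.93 and 1.66.

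**Figure D1:**
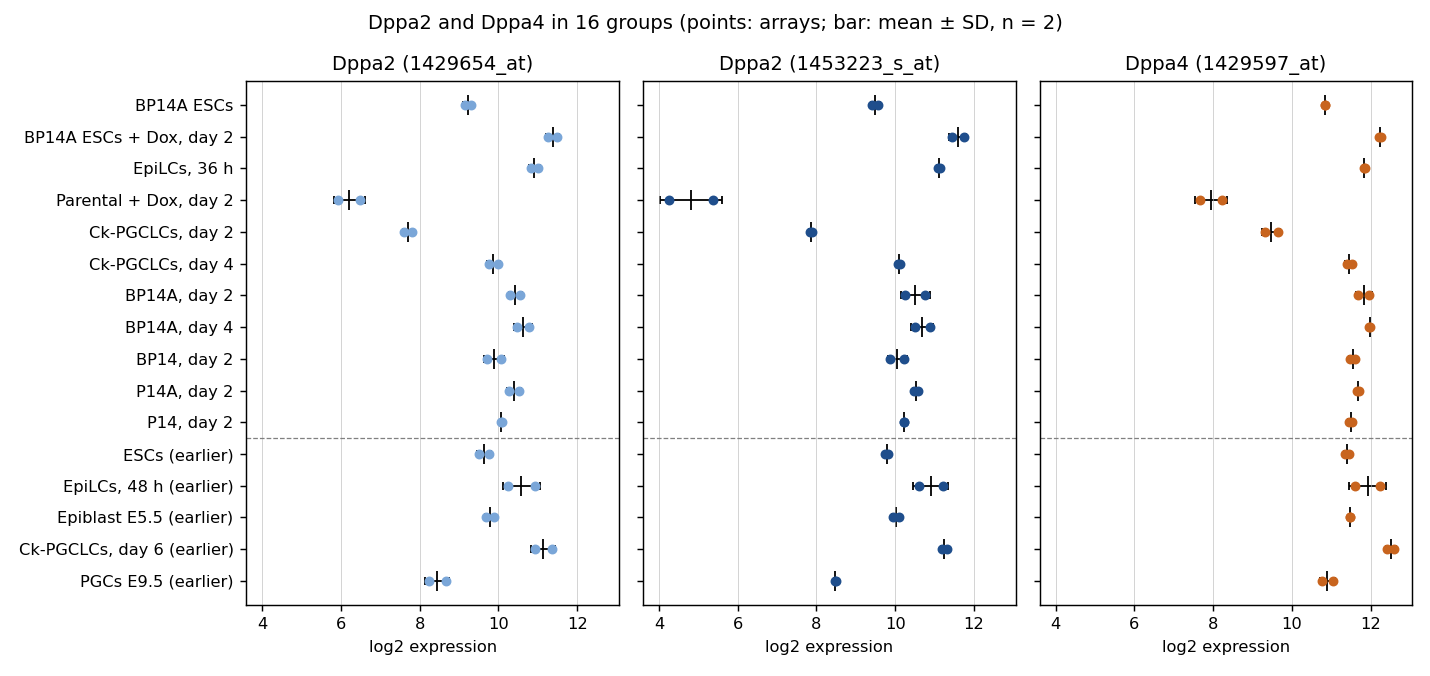
Quantile-normalised log2 expression (horizontal axis) of both Dppa2 probe sets and the Dppa4 probe set in 16 groups (vertical axis); points are arrays, bars the mean ± SD of 2 arrays, and the dashed line parts the 11 new from the 5 earlier groups. The parental cells with doxycycline and the day 2 Ck-PGCLCs lie to the left of all other groups in all 3 panels.

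Ranked by mean level on probe set 1453223_s_at, Dppa2 was highest in BP14A ESCs with doxycycline, then in day 6 Ck-PGCLCs, 36 h EpiLCs, 48 h EpiLCs, BP14A day 4, P14A, BP14A day 2, P14, day 4 Ck-PGCLCs, BP14, epiblast, ESCs, BP14A ESCs, PGCs, day 2 Ck-PGCLCs and parental cells with doxycycline. Only the last 3 steps of that order were wider than 2 SE: 1.02 from BP14A ESCs to PGCs, 0.61 from PGCs to day 2 Ck-PGCLCs and 3.05 from there to the parental cells. All other neighbours in the order did not differ beyond that error. Dppa4 was highest in day 6 Ck-PGCLCs, followed by BP14A ESCs with doxycycline, BP14A day 4, 48 h EpiLCs, 36 h EpiLCs, BP14A day 2, P14A, BP14, P14, epiblast, day 4 Ck-PGCLCs, ESCs, PGCs, BP14A ESCs, day 2 Ck-PGCLCs and parental cells. Its steps wider than 2 SE were 0.51 from ESCs to PGCs, 1.37 from BP14A ESCs to day 2 Ck-PGCLCs and 1.53 from there to the parental cells. Positions of the new relative to the earlier groups in both orders may carry a difference between the 2 array sets, which was not tested.

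The 3 probe sets moved together. Over the 16 group means, which share one set of arrays, the Pearson correlation was 0.986 between both Dppa2 probe sets and 0.977 between Dppa2 (1453223_s_at) and Dppa4, and Spearman's rho for the latter pair was 0.965. Without the parental cells, r between Dppa2 and Dppa4 over 15 groups was 0.939. Of 30 comparisons between groups, many of which share groups, all 3 probe sets had the same sign in 27. The Dppa2 difference was larger in size than that of Dppa4 in 27 of 30 on each Dppa2 probe set, so on this scale Dppa2 had the wider swings.

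In the step from naive ESCs to EpiLCs, both genes were higher in EpiLCs. Dppa2 (1453223_s_at) measured 9.57 and 9.42 in BP14A ESCs (9.49 ± 0.11, SD, n = 2) and 11.09 and 11.14 in 36 h EpiLCs (11.11 ± 0.04, n = 2), a difference of 1.62 or 3.07-fold. On probe set 1429654_at the difference was 1.69. Dppa4 measured 10.85 and 10.84 in the ESCs (10.85 ± 0.0097) and 11.82 and 11.86 in EpiLCs (11.84 ± 0.03), a difference of 0.996. For all 3 probe sets, both EpiLC arrays were above both ESC arrays. The earlier arrays gave the same sign with smaller differences. There Dppa2 (1453223_s_at) was 9.75 and 9.81 in ESCs (9.78 ± 0.04) and 10.59 and 11.21 in 48 h EpiLCs (10.90 ± 0.44), a difference of 1.12. Dppa4 was 11.36 and 11.46 in those ESCs (11.41 ± 0.07) and 11.60 and 12.25 in 48 h EpiLCs (11.92 ± 0.46), a difference of 0.51. Leaving out replicate 1 or 2 of 48 h EpiLCs, or 1 array of the ESCs, gave 0.81 to 1.43 for Dppa2 and 0.19 to 0.84 for Dppa4. The new ESCs carry the factor transgenes and the new EpiLCs do not, whereas the earlier pair shares its reporters.

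The E5.5 epiblast was nearer to ESCs than to EpiLCs for both genes. Dppa2 (1453223_s_at) measured 10.10 and 9.95 there (10.02 ± 0.11), 0.24 above ESCs and 0.88 below 48 h EpiLCs. Dppa4 measured 11.47 on both arrays (SD 0.0019), 0.06 above ESCs (-0.06 on the deposited values) and 0.46 below 48 h EpiLCs. Visceral endoderm markers had a summed level of 9.49 to 11.64 in epiblast, against 7.43 to 7.60 in ESCs and 8.26 to 8.27 in 48 h EpiLCs, and none of the 6 was dim in epiblast. Streak and mesoderm markers were at 10.42 to 10.93 in epiblast, against 8.56 to 8.76 and 7.60 to 8.20. The part of such cells in the epiblast levels was not tested. The 2 arrays of 48 h EpiLCs lay further apart than those of epiblast or ESCs, and leaving out 1 of them gave between 0.57 and 1.19 for Dppa2 and between 0.13 and 0.78 for Dppa4 in the comparison with epiblast.

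In the parental cells given doxycycline without a factor transgene, both genes were far below EpiLCs. Since the state from which these cells were taken is not labelled, rises and falls from EpiLCs to them are differences between groups. Dppa2 (1453223_s_at) measured 4.25 and 5.38 (4.81 ± 0.79), 6.30 log2 units or 78.6-fold below 36 h EpiLCs. Replicate 1 was there below the median of every array, so this fold is less certain than that of the other probe set. The other Dppa2 probe set, 1429654_at, measured 5.93 and 6.48 (6.21 ± 0.39), 4.71 units or 26.2-fold below. Dppa4 measured 7.66 and 8.23 (7.94 ± 0.40), 3.90 units or 14.9-fold below. Replicate 1 was the lower array on all 3 probe sets, and no parental array came near an EpiLC array. Leaving out either array of the 2 groups gave -6.86 to -5.73 for Dppa2 and -4.19 to -3.62 for Dppa4. In these cells 6 of the 8 tested primitive streak and mesoderm markers rose and 0 fell, and the list's summed level was 12.23 to 12.26 against 7.76 to 7.99 in EpiLCs. Of all tested genes, 7.23% rose and 5.63% fell. Of 4 neural markers 1 rose (2 on the deposited values, 0 with the mean of all probe sets), with a summed level of 10.06 to 10.18 against 8.17 to 8.69. In such bulk samples, fewer Dppa2- and Dppa4-positive cells and less of their RNA per cell cannot be told apart.

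Cytokine-induced PGCLCs passed through low levels of both genes on day 2 and stood higher again on day 4. Dppa2 (1453223_s_at) measured 7.83 and 7.90 on day 2 (7.86 ± 0.05), 3.25 units or 9.52-fold below 36 h EpiLCs, and 1429654_at was 3.21 units below. Dppa4 measured 9.31 and 9.64 (9.47 ± 0.23), 2.37 units or 5.17-fold below EpiLCs. The day 2 arrays were below all EpiLC arrays but above both parental arrays, by 3.05 for Dppa2 (1453223_s_at), 1.50 on 1429654_at and 1.53 for Dppa4. On day 4, Dppa2 measured 10.07 and 10.13 (10.10 ± 0.04), 2.24 units or 4.71-fold above day 2. Dppa4 measured 11.39 and 11.52 on day 4 (11.45 ± 0.09), 1.98 units or 3.95-fold above day 2. Day 4 still lay below EpiLCs, by 1.01 for Dppa2 and 0.39 for Dppa4. As in the parental cells, 7 of 8 streak and mesoderm markers rose and 0 fell from EpiLCs to day 2, with a summed level of 12.51 to 12.73. Of all tested genes, 8.42% rose and 6.06% fell. By day 4, 6 of the 8 markers fell and 0 rose, against 6.84% and 5.68% of all tested genes. Their summed level was then 9.05 to 9.14. None of the 8 was at the dim end of the array on day 2, and Mixl1, Hoxb1 and Lhx1 were dim on day 4. The part of these markers' cells in the Dppa2 and Dppa4 levels was not tested.

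Cells induced by all 3 factors did not show these low levels. On day 2, Dppa2 (1453223_s_at) measured 10.77 and 10.25 in BP14A cells (10.51 ± 0.37), 0.61 below EpiLCs, with both arrays under the EpiLC arrays and a range of -0.87 to -0.34 when 1 array was left out. Dppa4 measured 11.97 and 11.68 (11.83 ± 0.20), 0.02 below EpiLCs, and the arrays overlapped. On day 4, Dppa2 measured 10.88 and 10.50 (10.69 ± 0.27) and Dppa4 11.996 and 11.96 (11.98 ± 0.03). The differences between day 4 and day 2 were 0.18 for Dppa2 and 0.15 for Dppa4, and the arrays of both days overlapped on all 3 probe sets. Against the day 2 Ck-PGCLCs, BP14A cells stood higher by 2.65 for Dppa2 and 2.35 for Dppa4, and on day 4 by 0.59 and 0.52. The streak and mesoderm markers Mixl1, Hoxb1, Evx1, Cdx2 and Lhx1 were dim in BP14A cells on day 2, and the list's summed level was 7.90 to 8.02.

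**Figure D2:**
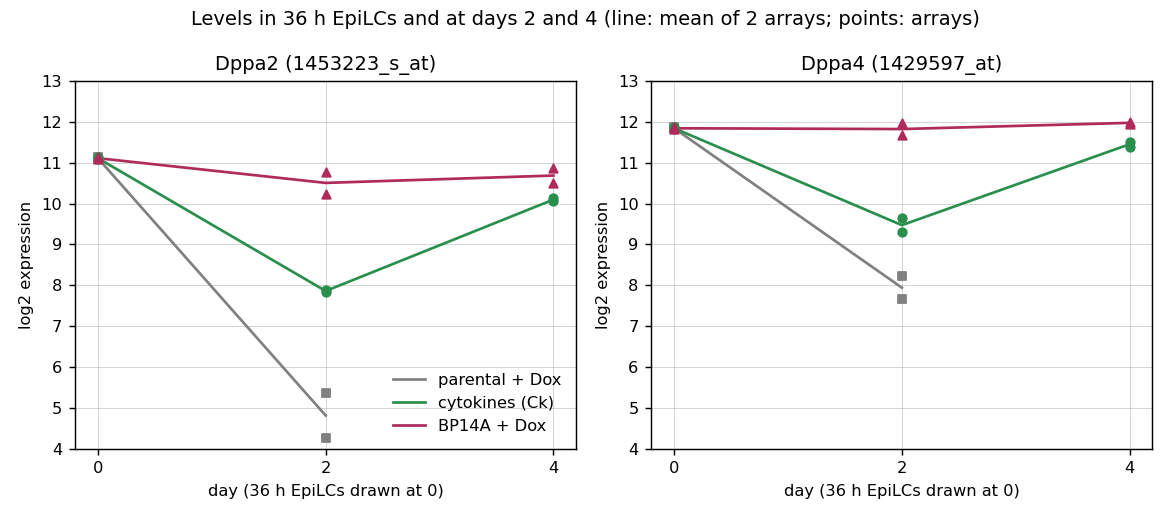
Log2 expression (vertical axis) of Dppa2 and Dppa4 in 36 h EpiLCs, drawn at day 0, and at days 2 and 4 (horizontal axis) for parental cells with doxycycline, Ck-PGCLCs and BP14A cells; points are arrays and lines join means of 2 arrays. On day 2 the mean of Dppa2 was 4.81, 7.86 and 10.51 and that of Dppa4 7.94, 9.47 and 11.83 in these 3 groups. The labels do not say from which state the parental cells were taken, so their line need not be a time course.

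Each of the 4 factor lines had levels far above the parental cells on day 2. Dppa2 (1453223_s_at) measured 9.88 and 10.22 in BP14 cells (10.05 ± 0.24), 10.47 and 10.57 in P14A cells (10.52 ± 0.07) and 10.22 on both arrays in P14 cells (SD 0.00055). These means were above the parental mean by 5.23, 5.71 and 5.41, against 5.69 or 51.7-fold for BP14A. Dppa4 measured 11.48 and 11.61 in BP14 cells (11.55 ± 0.09), 11.66 and 11.70 in P14A cells (11.68 ± 0.03) and 11.54 and 11.46 in P14 cells (11.50 ± 0.06). It was above the parental mean by 3.60, 3.74 and 3.55, against 3.88 or 14.7-fold for BP14A. On the second Dppa2 probe set, 1429654_at, the differences from the parental cells were 4.22 for BP14A, 3.68 for BP14, 4.19 for P14A and 3.87 for P14. All 8 factor arrays were thus above both parental arrays on each probe set, including those with Prdm14 as the only transgene. Because the 4 comparisons share the parental arrays, their likeness is not independent.

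Among the factor combinations the differences were small. Each combination is a separate line, so a factor and its line cannot be told apart. BP14A exceeded BP14 by 0.46 for Dppa2 and 0.28 for Dppa4, and P14A exceeded P14 by 0.30 and 0.19; in both pairs the added factor was Tfap2c and the arrays did not overlap. The pairs that differ by the Blimp1 transgene had smaller differences without a common sign. BP14A minus P14A was -0.01 for Dppa2 and 0.14 for Dppa4, and BP14 minus P14 was -0.17 and 0.05. The Tfap2c differences were 1.65 SE (Dppa2) and 1.36 SE (Dppa4) between BP14A and BP14 and 1.08 and 0.918 SE between P14A and P14, so none of these exceeded 2 SE. On 1429654_at the same pairs gave 2.17 SE, with a difference of 0.53, and 1.30 SE, and on 1453223_s_at leaving out 1 array gave 0.20 to 0.72 for BP14A minus BP14. Replicate 1 of BP14 had a Gapdh 5′ minus 3′ signal of -4.07, and its part in this was not tested.

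BP14A ESCs labelled as given doxycycline had higher levels of both genes than untreated ones. They measured 11.74 and 11.43 for Dppa2 (11.59 ± 0.22), 2.09 units or 4.27-fold above the same cells without it, and 2.16 units above on 1429654_at. Dppa4 measured 12.22 and 12.27 (12.24 ± 0.03), 1.40 units or 2.63-fold above. The treated cells were selected for stella-ECFP and the untreated cells were not, so doxycycline and selection cannot be told apart here. The factor genes themselves were not higher on their probe sets in the treated cells: Prdm14 fell by 2.73 (SE 0.25, adjusted p = 3.22e-07), and the differences of Prdm1 (-0.08, adjusted p = 0.919) and Tfap2c (-0.05, adjusted p = 0.949) did not pass. Whether these probe sets read transgene RNA is not given in the sources used here. Among markers, 3 of 6 naive ESC markers fell and 0 rose, and 2 of 4 primed epiblast markers rose and 0 fell, namely Fgf5 by 4.37 (adjusted p = 3.22e-07), from a dim level, and Pou3f1 by 2.16 (adjusted p = 0.000535). Of 7 germ cell markers 3 rose: Itgb3 by 2.55 (adjusted p = 0.00059), Dnd1 by 1.72 (adjusted p = 0.000188) and Dppa3 by 1.25 (adjusted p = 0.00146). Prdm14 was the 1 that fell. Dppa3 is the gene of Stella, whose reporter served for the selection. Of all tested genes, 5.51% rose and 3.9% fell. Of 4 neural markers 1 rose and 2 fell, with a rise of Pax6 by 4.20 (adjusted p = 1.55e-07). With the mean of all probe sets, 0 neural markers rose and 0 fell, 1 naive ESC marker fell and 1 primed epiblast marker rose. The part of these states in the levels of Dppa2 and Dppa4 was not tested. With the same transgenes, day 2 aggregates from EpiLCs stood lower than these ESCs by 1.08 for Dppa2 and 0.42 for Dppa4.

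The late stages differed between culture and embryo. Day 6 Ck-PGCLCs measured 11.18 and 11.32 for Dppa2 (11.25 ± 0.10) and 12.42 and 12.60 for Dppa4 (12.51 ± 0.12). Relative to 48 h EpiLCs, Dppa2 was 0.35 higher with overlapping arrays on 1453223_s_at and 0.56 higher on 1429654_at, and Dppa4 was 0.59 higher. Leaving out 1 array, those of 48 h EpiLCs in particular, gave 0.04 to 0.65 for Dppa2 and 0.26 to 0.91 for Dppa4. Embryonic PGCs at E9.5 measured 8.49 and 8.46 for Dppa2 (8.47 ± 0.02) and 11.04 and 10.76 for Dppa4 (10.90 ± 0.20). Relative to epiblast, Dppa2 was 1.55 lower, or 2.93-fold, and Dppa4 0.57 lower, or 1.48-fold. Day 6 Ck-PGCLCs thus stood above PGCs by 2.78 units or 6.85-fold for Dppa2 and by 1.61 units or 3.05-fold for Dppa4, with no overlap of arrays. Of all tested genes, 8.9% rose and 6.9% fell from epiblast to PGCs. Relative to epiblast, 4 of 8 blood and endothelium markers rose and 0 fell in PGCs. Their summed level was 12.78 to 13.86 in PGCs, 8.04 to 8.30 in epiblast and 10.31 to 10.68 in day 6 Ck-PGCLCs, and none of the 8 was dim in PGCs. Of fibroblast markers, 3 of 6 rose and 1 fell, with a summed level of 9.70 to 10.82 in PGCs. Of 6 visceral endoderm markers 2 fell and 0 rose. The part of such cells in the lower Dppa2 and Dppa4 of PGCs was not tested.

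**Figure D3:**
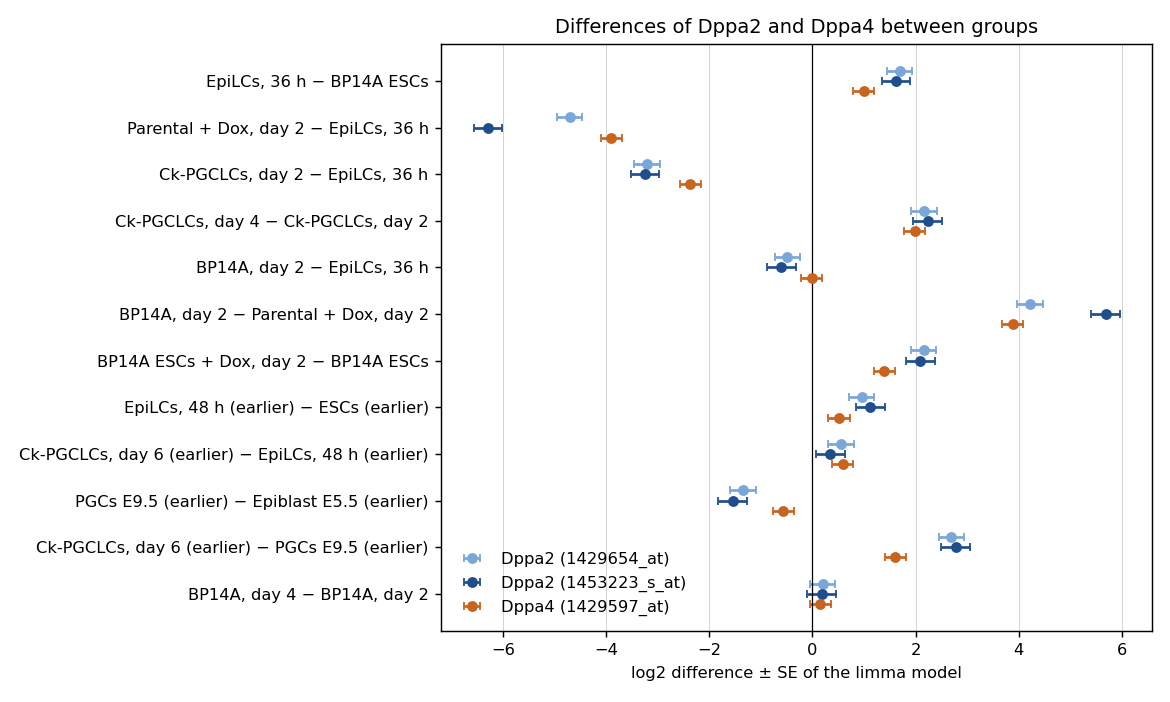
Log2 differences (horizontal axis) of both Dppa2 probe sets and Dppa4 in 12 comparisons (vertical axis), each the first group minus the second; points are differences of means of 2 arrays and bars ± SE of the limma model. Dppa2 spans -6.30 to 5.69 on 1453223_s_at and Dppa4 -3.90 to 3.88 over these comparisons.

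Germline genes with CpG-rich promoters, the class of genes that Dppa2 and Dppa4 are known to occupy, were followed through a list of 22 genes, of which 18 were tested. In the parental cells with doxycycline relative to EpiLCs, 14 of 18 fell and 0 rose, with a median difference of -2.71, while 5.63% of all tested genes fell, 7.23% rose and their median was -0.05. Dazl, an RNA-binding protein of germ cells, fell by 6.75 (SE 0.55, adjusted p = 3.03e-08), and Hormad1, a meiotic chromosome axis protein, fell by 6.24 (SE 0.41, adjusted p = 1.44e-09); both were dim in the parental cells. From EpiLCs to day 2 Ck-PGCLCs, 15 of 18 fell and 0 rose with a median of -2.22, against 6.06% of all genes that fell and 8.42% that rose. Mael, a piRNA pathway protein, fell by 5.92 to a dim level (SE 0.34, adjusted p = 2.25e-10). The deposited values without normalisation gave 1619 genes that rose and 712 that fell in that comparison, instead of 1305 and 939. In both comparisons Dppa2 was lower by more than the median of the list, at -6.30 and -3.25, and so was Dppa4, at -3.90 and -2.37.

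From day 2 to day 4 of the cytokine route, when Dppa2 and Dppa4 were higher again, 10 of 18 germline genes rose and 0 fell, with a median of 1.30; of all genes 5.68% rose and 6.84% fell. Dazl rose by 4.45 from a dim level (SE 0.55, adjusted p = 6.67e-06) and Tex19.1, a germ cell protein that restrains retrotransposons, by 2.93 (SE 0.28, adjusted p = 2.5e-07). Without replicate 2 of the day 2 group, 1 member fell. Between BP14A and parental cells on day 2, 14 of 18 were higher in BP14A and 0 lower, with a median of 2.98, against 6.63% and 7.25% of all genes. Dazl was higher there (adjusted p = 1e-08), with levels of 8.74 and 6.80 in BP14A and 1.12 and 0.12 in parental cells. The parental levels are dim, so the size of this difference is not given.

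From EpiLCs to BP14A day 2, where Dppa4 arrays overlapped and Dppa2 was 0.61 lower, 1 of 18 germline genes rose and 4 fell, with a median of -0.28; 6.25% of all genes rose and 5.36% fell. Smc1b, a cohesin subunit of meiosis, was the one that rose, by 2.46 (SE 0.49, adjusted p = 0.00102). Of the 4 that fell, Mael fell most, by 2.55 (SE 0.34, adjusted p = 1.53e-05). Taf7l fell by 2.00 (SE 0.28, adjusted p = 2.95e-05) and Sycp1 by 1.41 (SE 0.30, adjusted p = 0.0017). Without replicate 2 of BP14A day 2, 4 rose. In BP14A ESCs with doxycycline, 12 of 18 rose and 0 fell relative to untreated BP14A ESCs, with a median of 2.18, against 5.51% and 3.9% of all genes. Smc1b rose by 4.26 from a dim level (SE 0.49, adjusted p = 3.9e-06) and Piwil2, which binds piRNAs, by 3.36 (SE 0.33, adjusted p = 6.49e-07).

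From BP14A ESCs to 36 h EpiLCs, 7 of 18 germline genes rose and 1 fell, with a median of 0.90, while 7.17% of all genes rose and 7.45% fell. Mael rose by 3.65 (SE 0.34, adjusted p = 9.93e-08), and Stag3, a meiotic cohesin subunit, fell by 1.40 (SE 0.25, adjusted p = 0.000284). Without replicate 1 of BP14A ESCs, 2 fell. In the earlier arrays, 7 of 18 rose and 0 fell from ESCs to 48 h EpiLCs, with a median of 0.78, against 7.26% and 7.09% of all genes. From 48 h EpiLCs to day 6 Ck-PGCLCs, 8 rose and 2 fell with a median of 1.002, against 9.26% and 9.38%. Without replicate 2 of 48 h EpiLCs, 5 rose, and leaving out either array of 48 h EpiLCs or replicate 1 of day 6 left 1 that fell. From epiblast to PGCs, where Dppa2 and Dppa4 were both lower, 2 of 18 rose and 4 fell with a median of -0.19, against 8.9% and 6.9%. Hormad1 fell by 2.12 (SE 0.41, adjusted p = 0.000481) and Stag3 rose by 1.67 (SE 0.25, adjusted p = 3.86e-05).

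**Figure D4:**
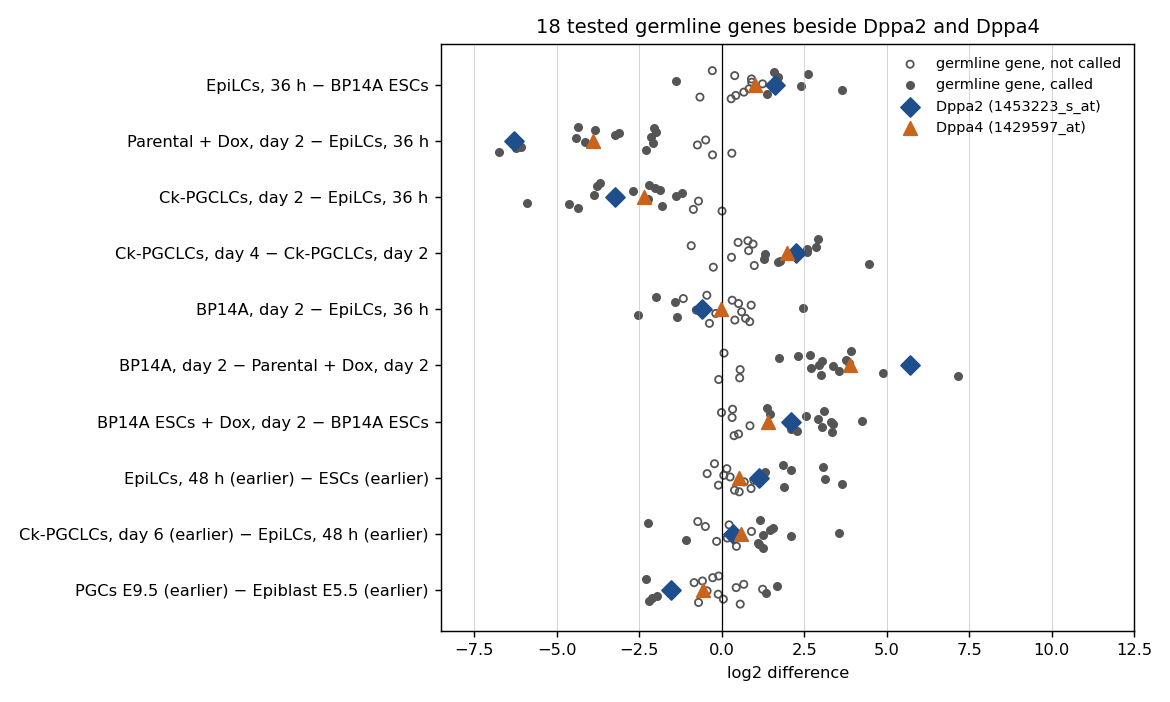
Log2 differences (horizontal axis) of the 18 tested germline genes in 10 comparisons (vertical axis), drawn as filled circles where a gene passed the test and open circles where it did not, beside the differences of Dppa2 (1453223_s_at) and Dppa4, for which no test is given. In the parental cells against EpiLCs, 14 circles are filled and all lie below 0, and in BP14A against parental cells 14 are filled and all lie above 0.

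Syce1 and Nkx2-5, known from work on Dppa2 mutant mice as genes downstream of Dppa2, took different courses. Syce1, a protein of the synaptonemal complex, fell by 2.68 from EpiLCs to parental cells with doxycycline (SE 0.24, adjusted p = 7.66e-08) and by 2.52 to day 2 Ck-PGCLCs (SE 0.24, adjusted p = 1.55e-07). It was higher by 2.10 in BP14A than in parental cells (SE 0.24, adjusted p = 1.31e-06). Nkx2-5, a heart transcription factor, passed the limma test in 0 of the 10 comparisons. Without replicate 1 of the day 2 Ck-PGCLCs, both passed as higher on day 4, Syce1 by 1.11 (adjusted p = 0.0104) and Nkx2-5 by 1.11 (adjusted p = 0.0291).

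Of 23 listed genes of zygotic genome activation, which Dppa2 and Dppa4 switch on through Dux, 9 were on probe sets with a single symbol and 4 passed the filter on low values: Tcstv1, Usp17la, Sp110 and Arg2. In the 7 comparisons of the new arrays, none of the 4 passed the limma test, and at an unadjusted p under 0.05 at most 1 did in each. Without replicate 1 of day 4 Ck-PGCLCs, 1 of the 4 fell from day 2 to day 4. Only Arg2 passed in the earlier arrays, with a rise of 1.38 from ESCs to 48 h EpiLCs (SE 0.34, adjusted p = 0.00566), a fall of 1.31 from there to day 6 Ck-PGCLCs (adjusted p = 0.00628) and a fall of 1.18 from epiblast to PGCs (adjusted p = 0.0143, lost without replicate 1 of either). Arg2 was dim in the ESCs, the day 6 Ck-PGCLCs and the PGCs. Arg2 no longer entered the test with a filter at the 60th percentile. Without replicate 2 of 48 h EpiLCs, 3 of the 4 rose to that stage and 3 fell after it. In the comparison of parental cells with EpiLCs, where Dppa2 was 26.2-fold (1429654_at) or 78.6-fold (1453223_s_at) and Dppa4 14.9-fold lower, the median of the 4 genes was 0.05. That median does not cover the listed genes that were not tested, among them Duxf3 and Zscan4c.

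Chromatin complexes that act at CpG-rich promoters were followed through 2 lists. None of 11 tested subunits of the H3K4 methyltransferase (COMPASS) complexes passed the limma test in any of the 10 comparisons. In these, 2 to 7 of the 11 had an unadjusted p under 0.05, and the list's medians lay between -0.29 and 0.11. The lowest limma adjusted p of the list was under 0.05 in each comparison (0.000109 to 0.0399), but there the change stayed under 2-fold. Of 12 subunits of Polycomb repressive complex 2, 0 passed between parental cells and EpiLCs (3 at an unadjusted p under 0.05). The lowest limma adjusted p of the list was 0.000534 there, for a change under 2-fold. In BP14A, 3 were higher and 1 lower than in parental cells, against 6.63% and 7.25% of all genes. Of these 3, Suz12 no longer passed without replicate 1 of BP14A (0.82, adjusted p = 0.31), without replicate 2 of the parental cells (0.91, adjusted p = 0.251) or with the mean of all probe sets (0.88, adjusted p = 0.222). The accessory subunit Phf19 was higher there by 3.90 (SE 0.22, adjusted p = 1.73e-10) and Jarid2 by 1.79 (SE 0.17, adjusted p = 2.05e-07). Phf19 also rose by 3.03 from day 2 to day 4 Ck-PGCLCs (SE 0.22, adjusted p = 1.46e-08).

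Dppa2 and Dppa4 also belong to a set of genes named for their abundance in ESCs (ECAT genes), of which 9 others were tested. From EpiLCs to parental cells, 1 of the 9 rose and 4 fell, against 7.23% and 5.63% of all genes. From EpiLCs to day 2 Ck-PGCLCs 1 rose and 4 fell, against 8.42% and 6.06%. Tdrd12, a piRNA pathway protein, fell by 6.41 to a dim level in the former (SE 0.35, adjusted p = 1.1e-10) and by 4.28 in the latter (SE 0.35, adjusted p = 2.19e-08). Dnmt3l, a cofactor of DNA methylation, fell by 6.30 (SE 0.26, adjusted p = 4.37e-12) and 6.48 (SE 0.26, adjusted p = 4.37e-12). Nanog, a pluripotency factor, went the other way and rose by 4.16 in the parental cells (SE 0.45, adjusted p = 1.01e-06) and 3.31 in day 2 Ck-PGCLCs (SE 0.45, adjusted p = 1.4e-05). The low of Dppa2 and Dppa4 was thus not shared by Nanog. In BP14A ESCs with doxycycline, where Dppa2 stood 2.09 and Dppa4 1.40 higher, 2 of the 9 rose and 1 fell, against 5.51% and 3.9% of all genes. Dnmt3l rose by 3.53 (SE 0.26, adjusted p = 2.68e-08) and Eras, a Ras protein of ESCs, by 2.92 (SE 0.21, adjusted p = 1.54e-08). Nanog fell by 1.40 (SE 0.45, adjusted p = 0.0385). With the new arrays normalised and fitted on their own, Nanog no longer passed (adjusted p = 0.0731).

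Dppa3 and Dppa5a bear the same family name without being related in sequence, and Dppa1 was not on a probe set with a single symbol. Dppa3 (Stella), an early germ cell protein, fell by 2.54 from EpiLCs to parental cells (SE 0.25, adjusted p = 3.67e-07) but rose by 1.21 to day 2 Ck-PGCLCs (SE 0.25, adjusted p = 0.00121), where Dppa2 was 3.25 and Dppa4 2.37 lower. From epiblast to PGCs it rose by 5.22 (SE 0.25, adjusted p = 1.48e-11), while Dppa2 was 1.55 and Dppa4 0.57 lower. Dppa5a, a KH-domain protein, fell by 3.08 in the parental cells (SE 0.16, adjusted p = 9.45e-11) and did not pass from EpiLCs to day 2 Ck-PGCLCs, with a difference of -0.43 (SE 0.16, adjusted p = 0.0633).

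On chromosome 16 the order of protein-coding genes in RefSeq (assembly GRCm38.p6) runs Nectin3, Gm52257, Dppa4, Dppa2, Morc1, Trat1. Morc1, a germline protein that silences transposons and the next of them after Dppa2, shared the low in 2 groups but not the step to EpiLCs. It fell by 6.08 from EpiLCs to a dim level in parental cells (SE 0.29, adjusted p = 2.97e-11) and by 2.46 to day 2 Ck-PGCLCs (SE 0.29, adjusted p = 3.15e-06), and rose by 4.28 from there to day 4 (SE 0.29, adjusted p = 5.94e-09). In contrast to Dppa2 and Dppa4, it fell by 2.73 from BP14A ESCs to EpiLCs (SE 0.29, adjusted p = 7.09e-07), and it rose by 5.39 from epiblast to PGCs (SE 0.29, adjusted p = 7.62e-11). In BP14A ESCs with doxycycline its difference was -0.28 (SE 0.29, adjusted p = 0.637). Nectin3, a cell adhesion protein on the Dppa4 side, passed only from EpiLCs to BP14A day 2, by 1.02 (adjusted p = 0.00631), and from 48 h EpiLCs to day 6 Ck-PGCLCs, by 1.37 (adjusted p = 0.00028); neither passed with the mean of all its probe sets, nor the first without replicate 1 of BP14A or replicate 2 of EpiLCs, at 0.67 (adjusted p = 0.139) and 0.66 (adjusted p = 0.142). Trat1, a T cell receptor adaptor beyond Morc1, passed in 0 of the 10 comparisons, but without replicate 2 of BP14A day 2 it was lower there than in EpiLCs by 2.19 (adjusted p = 0.00554). Its levels on the 2 BP14A arrays were 3.85 and 6.20. With the mean of all its probe sets, Trat1 was lower in day 2 Ck-PGCLCs than in EpiLCs by 1.06 (adjusted p = 0.0483).

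**Figure D5:**
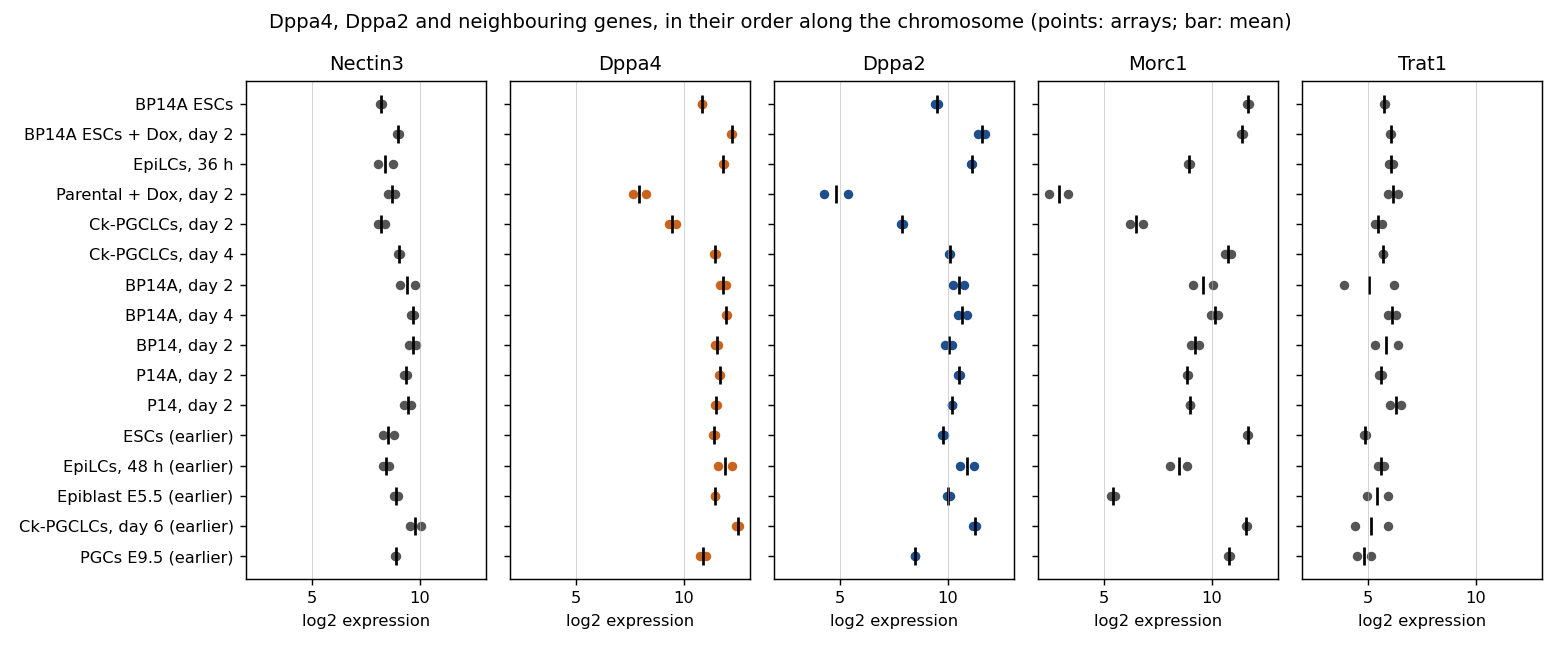
Log2 expression (horizontal axis) of Nectin3, Dppa4, Dppa2 (1453223_s_at), Morc1 and Trat1, in their order along the chromosome, in 16 groups (vertical axis); points are arrays and bars means. Dppa4, Dppa2 and Morc1 are low in parental cells with doxycycline and day 2 Ck-PGCLCs, and Morc1 is also low in epiblast.

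Symbols that are clone or model numbers were left out of the ranking of tested genes by likeness. Among the remaining genes, and besides each other, those whose group means correlated best with Dppa2 over the 16 groups were Smpdl3b (r = 0.936), Slc9b1 (0.922), Dazl (0.913), Chchd4 (0.895) and Deptor (0.893). For Dppa4 they were Chchd4 (0.921), Dazl (0.914), Alkbh2 (0.908), Smpdl3b (0.907) and Slc9b1 (0.904). Over the 16 groups none of these reached the 0.977 between Dppa2 and Dppa4. Without the parental cells the value for Dppa2 was 0.939 both with Smpdl3b and with Dppa4 and 0.849 with Dazl, and for Dppa4 0.839 with Chchd4. Spearman's rho over the 16 groups was lower for the listed genes. It ran from 0.591 (Deptor) to 0.906 (Smpdl3b) with Dppa2 and from 0.571 (Alkbh2) to 0.838 (Smpdl3b) with Dppa4. Chchd4 changed little in size, by -0.80 from EpiLCs to parental cells, under the 2-fold limit. The correlations rest on 16 means from shared arrays and are descriptions only.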

How the data were processed

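The authors' deposited matrix holds a log2 value per probe set and array, from 0 to 14.59; how the log2 values were summarised and normalised is not given in the sources used here. Array medians differed by 0.16, more than the tolerance of 0.1, so all 32 arrays were quantile normalised, which hides changes in total RNA per cell. The 64 control probe sets were left out. Of 34945 probe sets with 1 symbol, 34741 matched RefSeq. Each gene took its brightest probe set; genes with at least one group mean at or above log2 4.05, the 40th percentile over the whole matrix, were tested, 15497 of 18193. Of 82 list genes, 66 were measured and 58 tested. One limma model (limma 3.58.1, R 4.3.3, data.table version 1.17.8) had a mean per group and 16 residual degrees of freedom, and was tested on simulated data. The 2 arrays per group limit the precision. A marker list's summed level is the log2 of its genes' summed linear levels, given as the range over a group's arrays. Dim means that both arrays of a group are under the filter level. Genes are named by rule: members, list genes by size of change, the 5 most alike (without clone or model numbers), markers and neighbours. The members, lists and tests were chosen with earlier results of these data known, and calls for parental cells against EpiLCs and BP14A ESCs with against without doxycycline were added after values were seen. Figures were drawn with matplotlib 3.10.9. Alternatives are in the closing section.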

Additional observations from a re-analysis of the deposited data

Results flagged for a closer look

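On day 4, both Dppa4 arrays of Ck-PGCLCs lay below both arrays of 36 h EpiLCs (log2 difference -0.39) and both arrays of BP14A cells lay above them (0.13). These differences are 1.90 and 0.65 times their SE, so neither exceeds 2 SE. The 2 comparisons share the EpiLC arrays, and the difference between them was not tested.

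From the epiblast state to the late germ cell stage, culture and embryo also differed in sign. Dppa2 probe set 1429654_at had a difference of 0.56 from 48 h EpiLCs to day 6 Ck-PGCLCs and of -1.34 from epiblast to PGCs. Dppa4 had 0.59 and -0.57. In each case every array of one group lay on one side of the other group, and the difference between culture and embryo was not tested.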

How the results depend on the processing

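In the comparisons of Dppa2 and Dppa4, no setting turned the sign of a difference whose arrays did not overlap, apart from Dppa4 in epiblast against ESCs (-0.06 on deposited and median-centred values). Of differences with overlapping arrays, these turned: Dppa4 in BP14A against EpiLCs (-0.16 to 0.12 with 1 array left out), Dppa2 from BP14A day 2 to day 4 (-0.08 to 0.44) and, among factor lines, BP14A minus P14A (-0.28 to 0.25 for Dppa2, -0.0004 to 0.28 for Dppa4) and BP14 minus P14 (-0.02 to 0.12 for Dppa4). On the deposited values, Dppa2 was -3.08 from EpiLCs to day 2 Ck-PGCLCs, 2.14 from day 2 to day 4 and -1.43 from epiblast to PGCs, and Dppa4 1.34 for doxycycline in ESCs. With median centring these were -3.12, 2.15, -1.46 and 1.34, and Dppa4 was 0.97 from BP14A ESCs to EpiLCs. The mean of both Dppa2 probe sets gave -5.50 for parental cells against EpiLCs, 4.96 for BP14A against parental cells and -1.45 for PGCs. Leaving out 1 array gave -6.86 to -5.73 for Dppa2 and -4.19 to -3.62 for Dppa4 in parental cells against EpiLCs, 0.975 to 1.01 for Dppa4 from BP14A ESCs to EpiLCs and -2.54 to -2.21 for Dppa4 from EpiLCs to day 2 Ck-PGCLCs. The correlation of Dppa2 with Dppa4 was 0.965 by Spearman's rho, 0.989 over the 11 new groups and, chosen after seeing the data, 0.939 without the parental cells. Separate fits of the new and earlier arrays moved no difference beyond its spread. The replicate block left the Dppa2 difference of parental cells from EpiLCs at -6.30 and changed 2 counts, streak and mesoderm markers that fell from EpiLCs to BP14A day 2 and from 48 h EpiLCs to day 6 (each 2 instead of 1); numbers did not pair the arrays, as replicate deviations of 120 pairs of groups correlated at a median of 0.05 (range -0.35 to 0.52). Without the fold limit, 3826 genes passed from BP14A ESCs to EpiLCs, 3678 from EpiLCs to parental cells, 3920 to day 2 Ck-PGCLCs, 3305 from day 2 to day 4, 3066 from EpiLCs to BP14A, 3579 between BP14A and parental cells, 2496 with doxycycline in ESCs, 3776 from ESCs to 48 h EpiLCs, 4930 to day 6 and 4263 from epiblast to PGCs.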
